A study of Mus musculus with 15 samples.

Results

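The data describe the tumour suppressor p53 (*Trp53*) and 9 genes that it is known to switch on directly or that hold it in check, *Mdm2*, *Mdm4*, *Cdkn1a*, *Ccng1*, *Bbc3*, *Pmaip1*, *Zmat3*, *Sesn1* and *Phlda3*, in A20 cells. The 10 genes were taken by name, out of 41388 genes in the count files. A20 cells derive from a B cell lymphoma of BALB/c mice, and the study mutated the transcription factor gene *Foxp1* in it with CRISPR to test whether depleting Foxp1 alters immune surveillance by way of antigen presentation, and RNA-seq was used to characterize the clones. Of 5 lines, the parental A20 line carried wild-type *Foxp1*, clones E6.1 and E6.2 carried a mutation in exon 6, and clones E7.1 and E7.2 carried one in exon 7. Each clone was grown from 1 cell, so a difference between a clone and the parental line can come from the mutation or from the cell that founded the clone, and these cannot be told apart. Every line had 3 RNA-seq libraries from separate passages, 15 in all, and p-values measure the spread between these passages.

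p53 is a transcription factor that cells keep at low activity until DNA damage or another stress stabilizes the protein. Mdm2, itself a p53 target, ubiquitinates p53 and sends it to the proteasome, and Mdm4 binds and masks its activation domain. Among the targets, p21 (*Cdkn1a*) and cyclin G1 (*Ccng1*) act on the cell cycle, PUMA (*Bbc3*) and NOXA (*Pmaip1*) are BH3-only proteins that promote apoptosis, and the others serve RNA stability, metabolism and restraint of Akt. B cells and their lymphomas are known for their sensitivity to this pathway. Because p53 is regulated chiefly as a protein, its transcript level does not measure its activity.

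The start-site windows of these genes were read from RefSeq (GRCm38.p6), as 250 bases before to 50 after each start. The table held 13 windows for 8 of the 10 genes, all but *Pmaip1* and *Zmat3*. The p53 half-site, a motif of 10 letters that reads the same on both strands, was present in 5 of these 13 windows and in 2745 of all 32851 windows (8.36%). The letters TGTTTAC, searched on both strands as the core that forkhead proteins such as Foxp1 prefer, stood in 3 of the 13 windows and in 1199 of all windows (3.65%). The 6 stretches below show the matches upstream of a start, with the half-site or forkhead letters in capitals. They are given because a half-site is a part of the element that p53 reads, and the forkhead letters are the core named above for Foxp1.
Cdkn1a, chr17:29090887-29090956, plus strand: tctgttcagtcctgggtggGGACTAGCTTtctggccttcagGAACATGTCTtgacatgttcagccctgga
Trp53, chr11:69580265-69580312, plus strand: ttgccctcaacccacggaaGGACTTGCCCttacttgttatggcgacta
Mdm2, chr10:117710893-117710956, minus strand: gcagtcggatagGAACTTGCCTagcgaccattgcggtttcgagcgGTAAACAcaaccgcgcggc
Ccng1, chr11:40755443-40755490, minus strand: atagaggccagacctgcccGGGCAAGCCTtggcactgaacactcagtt
Sesn1, chr10:41887247-41887294, plus strand: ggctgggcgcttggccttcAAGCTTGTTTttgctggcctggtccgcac
Bbc3, chr7:16310075-16310119, plus strand: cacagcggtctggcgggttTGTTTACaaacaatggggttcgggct

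In the gene models of the count files, the stretches of *Cdkn1a*, *Trp53*, *Mdm2* and *Ccng1* lie upstream of the gene, while those of *Sesn1* and *Bbc3*, which precede an internal start, lie in an intron. The *Cdkn1a* window held 2 half-sites, 73 and 51 bases upstream of the start. The second runs into a further CATG, so that the spelled-out core CATGNNNNNNCATG, whose first letters lie inside that half-site, begins 48 bases upstream. This core was in 1 of the 13 windows and in 0.712% of all windows. In *Mdm2* the half-site lay 186 bases upstream, and the forkhead letters, on the opposite strand, 153 bases upstream. *Trp53* itself had a half-site 75 bases before its start. The remaining forkhead match began at base 23 after a second start of *Sesn1*. A match is a string of letters, and whether either factor binds there was not measured.

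The libraries held 26328054 to 39181530 counted read pairs (median 35586010). Values are given as library-scaled counts (CPM) after TMM normalization, and levels are compared between genes only per exon length, as RPKM. *Foxp1*, the targeted gene, ran from 102 to 166 CPM in the parental line, from 99.5 to 109 in E6.1 and from 104 to 109 in its sister clone E6.2. It ran from 41.7 to 64.3 CPM in E7.1 and from 37.1 to 52.3 CPM in E7.2. Its transcript was lower than parental in E7.1 (log2 fold change −1.29, adjusted p = 0.00688) and E7.2 (−1.69, adjusted p = 0.00116) by edgeR, while both E6 clones overlapped the parental line. The summed level of 6 B cell markers (*Cd79a*, *Cd79b*, *Pax5*, *Ebf1*, *Ms4a1* and *Cd22*) lay between 718 and 1320 CPM in all libraries, against 1.83 to 10.6 CPM for 10 markers of other cells. All 3 E6.2 libraries, at 718 to 800 CPM, were below those of every other line, which began at 916 CPM. Among these markers *Ms4a1* was lower in E6.2 than in the parental line (−0.91, adjusted p = 0.0227), and *Cd79a* (1.08, adjusted p = 0.0037) and *Ms4a1* (0.44, adjusted p = 0.0407) were higher in the E7 than in the E6 clones. Their part in the p53 results was not tested. E6.2 replicate 3 and E7.2 replicate 3 stood apart from the others, with TMM factors of 0.906 and 0.826, and results that turn on them are given with and without them.

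Per length, the 10 genes fell into a well-expressed set and a nearly silent pair in the parental line. *Ccng1* was highest at 51.5 RPKM (SD 7.71, n = 3), above 91.0% of the 13904 genes tested. *Sesn1* (31.0), *Pmaip1* (28.0), *Zmat3* (27.4), *Mdm4* (21.4), *Trp53* (21.4) and *Mdm2* (18.3) followed in RPKM. From each of these 6 genes to the next the ranges over the 3 libraries overlapped, except between *Zmat3* (25.7 to 30.2) and *Mdm4* (18.3 to 24.0). *Bbc3* stood at 8.41 RPKM, near the median tested gene at 5.90. *Cdkn1a*, the classical readout of p53 in cell cycle arrest, reached 0.666 RPKM and exceeded 18.9% of tested genes, and *Phlda3*, which competes with Akt for membrane lipids, reached 0.349 RPKM and exceeded 13.1%. The ranges of these last genes, 0.503 to 0.799 and 0.188 to 0.523 RPKM, also overlapped. *Bbc3* was separated from *Mdm2* above it and from *Cdkn1a* below it in every parental library.

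**Figure D1:**
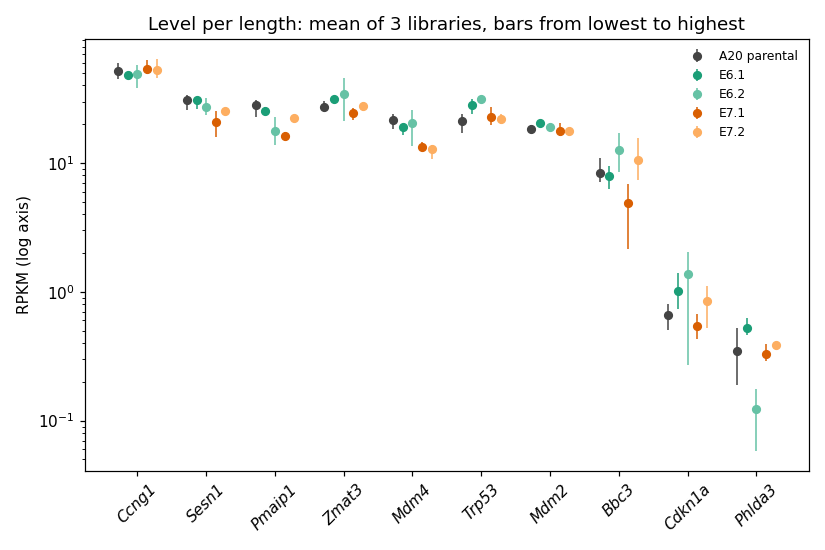
RPKM on a log axis for each gene in the 5 lines, as the mean of 3 libraries (point) with a bar from the lowest to the highest library; genes are ordered by their parental level. In every line *Cdkn1a* and *Phlda3* sit below the other 8 genes, and the widest bar is that of *Cdkn1a* in E6.2, from 0.271 to 2.05 RPKM.

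*Trp53* (ENSMUSG00000059552, mm10 chromosome 11, 69580359 to 69591873) measured 69.5, 97.2 and 92.5 CPM in the 3 parental libraries. It measured 128, 97.4 and 115 CPM in E6.1, and 125, 122 and 135 CPM in E6.2. In E7.1 it stood at 110, 79.6 and 87.8 CPM, and in E7.2 at 80.8, 86.3 and 97.9 CPM. All 6 E6 libraries were thus above the highest parental library, in E6.1 by a margin of under 1 CPM, while both E7 clones overlapped the parental range. Against the parental line the log2 fold change was 0.39 (SE 0.16, edgeR adjusted p = 0.621) in E6.1 and 0.55 (SE 0.16, adjusted p = 0.151) in E6.2, neither past the threshold of 0.05. In E7.1 and E7.2 it was 0.10 and 0.03, with 95% intervals of −0.24 to 0.44 and −0.31 to 0.37. Compared directly, the E7 clones had less *Trp53* transcript than the E6 clones, by −0.41 (SE 0.11, interval −0.65 to −0.17, adjusted p = 0.0346). In bulk libraries fewer expressing cells and less RNA per cell cannot be told apart.

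The E7 against E6 call on *Trp53* stood in 13 of 22 other settings, and leaving out E6.1 replicate 1, its highest E6.1 library, gave −0.36 with an adjusted p of 0.114. The other libraries whose removal ended the call were E6.1 replicate 3, E6.2 replicates 1 and 2, E7.1 replicates 2 and 3 and E7.2 replicates 1 and 2, with adjusted p up to 0.0957, the estimates staying between −0.48 and −0.36 over all settings. The genes whose levels followed *Trp53* most closely over the 15 libraries were *Epc1*, a subunit of the NuA4 acetyltransferase, and *Kdm3a*, a histone H3K9 demethylase. Their log2 CPM, centred on its mean, differed from that of *Trp53* by 0.0951 and 0.109 (root mean square), where *Trp53* itself varied by 0.274. A gene without a symbol in the name table lay between them.

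The inhibitors were read 1 at a time, and the difference between them was not tested. *Mdm2* (chromosome 10, 117688888 to 117710758) was among the steadiest of the 10 genes, at 88.2, 99.3 and 91.2 CPM in the parental libraries and between 82.1 and 109 CPM in all 15. It had no call in any comparison, and its 95% intervals against the parental line reached from −0.30 to 0.42 over the 4 clones. In the E7 against the E6 clones *Mdm2* differed by −0.17 (interval −0.34 to 0.01, edgeR adjusted p = 0.179). The 3 E6.1 libraries, at 104, 99.8 and 109 CPM, lay above the parental ones, with a log2 fold change of 0.17 (adjusted p = 0.910).

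*Mdm4* (ENSMUSG00000054387, chromosome 1, 132959484 to 133030561) split by guide apart from 1 library. Its parental libraries held 270, 354 and 326 CPM, those of E6.1 298, 242 and 300 CPM, and those of E6.2 379, 333 and 200 CPM. E7.1 held 184, 190 and 214 CPM, and E7.2 held 205, 203 and 159 CPM. Every E7 library was below every parental library, and E6.2 replicate 3 was the one E6 library inside the E7 range. *Mdm4* was lower in the E7 than in the E6 clones by −0.60 (SE 0.15, interval −0.91 to −0.29, adjusted p = 0.0216). Without E6.2 replicate 3 the difference was −0.70 (adjusted p = 0.00212), and without both libraries that stood apart it was −0.63 (adjusted p = 0.00152). Against the parental line it was −0.69 (adjusted p = 0.0893) in E7.1 and −0.75 (adjusted p = 0.185) in E7.2. Both were past the threshold without E6.2 replicate 3, a library of neither line compared, at adjusted p = 0.0256 and 0.0396. They passed it in only 3 (E7.1) and 1 (E7.2) of 22 other settings. The adjusted p reached 0.314 for E7.1 without E7.1 replicate 1, and 0.558 for E7.2 without parental replicate 2. The E7 against E6 call was lost when E6.1 replicate 1 or 3, E6.2 replicate 1 or E7.1 replicate 1 was left out (adjusted p 0.0543 to 0.0668). The pseudogene *Mdm4-ps*, with which reads could be shared, took 23 to 56 counts per library against 4955 to 13276 for *Mdm4*. Read pairs matching both places were not counted, so these counts do not show how many pairs *Mdm4* lost.

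Because both inhibitors and p53 are read per length here, their balance can be given as ratios of RPKM, chosen after the values were seen and so without a test. *Trp53* to *Mdm4* was 0.941 to 1.04 in the parental libraries. It was 1.40 to 1.57 in E6.1 and 1.20 to 2.47 in E6.2. Among the E7 libraries it was 1.50 to 2.19 for the first clone and 1.44 to 2.25 for the second, above the parental range in all 12 clone libraries. *Trp53* to *Mdm2* was 0.989 to 1.27 in the parental libraries. That range was overlapped by E6.1 (1.22 to 1.54), E7.1 (1.19 to 1.34) and E7.2 (1.14 to 1.32), while E6.2 lay above it (1.47 to 1.80). How often the ratios of other gene pairs separate the lines was not counted. In the E6 clones the mean of *Trp53* was 28.1 and 31.4 RPKM, against 21.4 in the parental line, and in the E7 clones the mean of *Mdm4* was 13.2 and 12.8 RPKM, also against 21.4. *Mdm4* to *Mdm2* averaged 1.17 in the parental line (SD 0.0999, n = 3). Its mean was 0.917 and 1.07 in the E6 clones and 0.757 and 0.727 in the E7 clones, the first clone of each guide first.

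**Figure D2:**
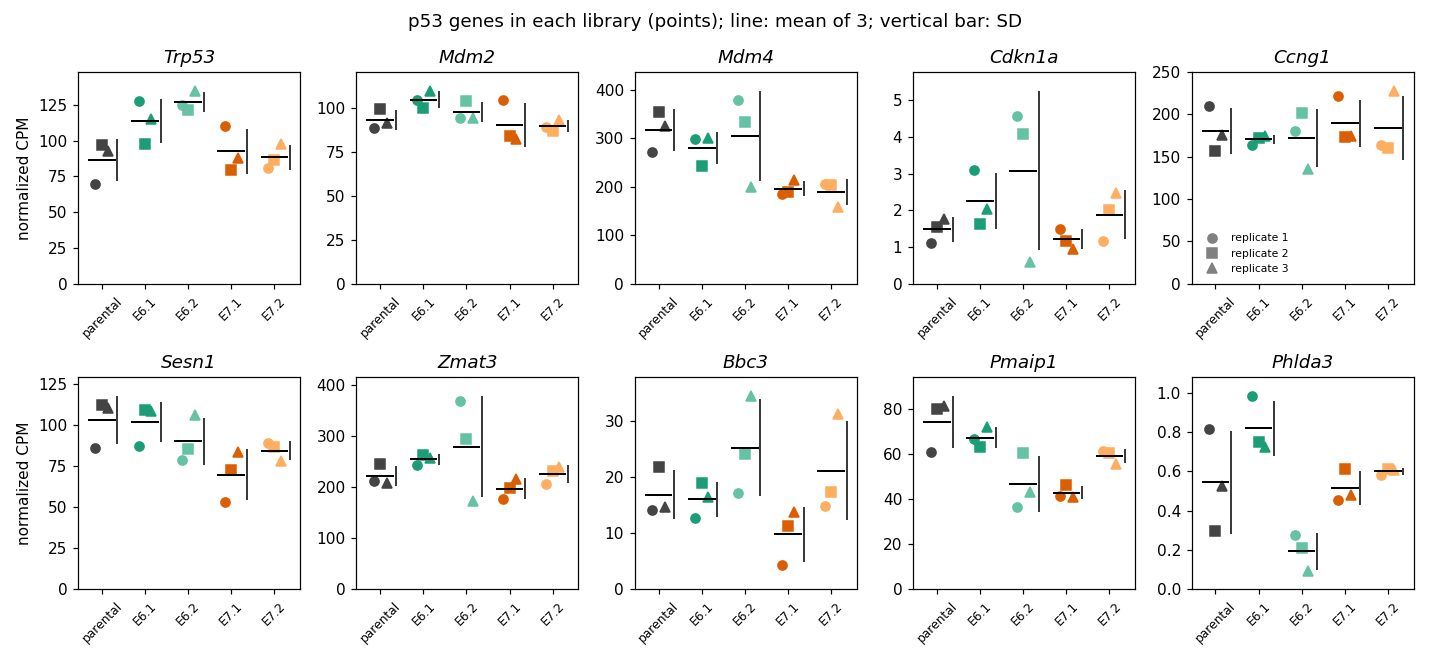
Normalized CPM of the 10 genes in each of the 15 libraries, grouped by line; the marker shape gives the replicate number, the horizontal line the mean of 3 libraries and the vertical bar 1 SD to either side. Both E7 clones sit below the parental line for *Mdm4*, all 6 E6 libraries sit above it for *Trp53*, and E6.2 replicate 3 (triangle) falls away from its line for *Mdm4*, *Cdkn1a* and *Zmat3*.

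Neither arrest gene passed the edgeR test in any comparison. *Cdkn1a* (ENSMUSG00000023067, chromosome 17, 29090979 to 29100722), the inhibitor of cyclin-dependent kinases, had 1.12, 1.55 and 1.78 CPM in the parental libraries, on 37 to 61 counts. It had 3.11, 1.64 and 2.03 CPM in E6.1, 1.50, 1.17 and 0.955 CPM in E7.1, and 1.16, 2.00 and 2.47 CPM in E7.2. E6.2 held both extremes, with 4.57 and 4.08 CPM in replicates 1 and 2 and 0.601 CPM, from 20 counts, in replicate 3. The E6.2 log2 fold change against the parental line was 1.05 with an interval of −0.12 to 2.23 (adjusted p = 0.429). It was 1.56 (adjusted p = 0.0574) without E6.2 replicate 3, 1.54 (adjusted p = 0.0313) without both libraries that stood apart, and 0.65 (adjusted p = 0.618) without E6.2 replicate 1. The E7 clones lay below the E6 clones by −0.80 (adjusted p = 0.175), which became −1.04 (adjusted p = 0.00951) without E6.2 replicate 3 and −0.58 (adjusted p = 0.368) without E6.2 replicate 1, so that 1 library decided the call.

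*Ccng1*, which recruits protein phosphatase 2A to Mdm2, was the most abundant of the 10 genes per length. It measured 210, 157 and 175 CPM in the parental libraries and 135 to 227 CPM in all 15, its lowest and highest values being E6.2 replicate 3 and E7.2 replicate 3. The log2 fold changes of the 4 clones lay between −0.09 and 0.07, and their 95% intervals between −0.48 and 0.46.

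Of the BH3-only genes, *Pmaip1* (ENSMUSG00000024521) was the 1 gene of the 10 past the test for any difference among the 5 lines (edgeR F test, adjusted p = 0.0349). The parental libraries held 60.7, 79.9 and 81.4 CPM and E6.1 held 66.7, 62.9 and 72.1 CPM. E6.2 held 36.5, 60.5 and 43.2 CPM, E7.1 held 41.4, 46.0 and 41.0 CPM, and E7.2 held 61.3, 60.2 and 55.6 CPM. E7.1 was entirely below the parental range, E6.2 narrowly so, and the other clones overlapped it. *Pmaip1* fell by 0.79 on the log2 scale in E7.1 (SE 0.17, interval −1.15 to −0.43, adjusted p = 0.0400). In E6.2 the value was −0.66 (adjusted p = 0.0904), and −0.90 (adjusted p = 0.0121) without its replicate 2. E7.2 stood at −0.33 (adjusted p = 0.413) and E6.1 at −0.14 (adjusted p = 0.976). Within each guide the 3 libraries of 1 clone were below those of the other. The difference was −0.52 in E6.2 against E6.1 (adjusted p = 0.188) and 0.46 in E7.2 against E7.1 (adjusted p = 0.280). How many of all tested genes separate clones of the same guide in this way was not counted. Against the parental line 14.7% of all tested genes did not overlap in E6.2, and 32.0% in E7.1. The E7.1 call stood in 12 of 22 other settings, and removing parental replicate 2 or 3 gave adjusted p of 0.221 and 0.229. It was also lost without any 1 library of E6.1 or E7.1, or without E7.2 replicate 1 or 2 (adjusted p 0.0615 to 0.227).

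*Bbc3* varied widely between passages. It had 14.2, 21.9 and 14.6 CPM in the parental libraries, 12.7, 18.9 and 16.4 in E6.1, and 17.2, 24.2 and 34.5 in E6.2. E7.1 had 4.31, 11.3 and 13.7 CPM, and E7.2 had 14.9, 17.3 and 31.3 CPM. All 3 E7.1 libraries were below the parental ones and those of E7.2, and the highest values of all were the 2 libraries that stood apart. For E7.1 against the parental line 32.0% of all tested genes did not overlap, and between the E7 clones that share was not counted. E7.1 differed from the parental line by −0.79 (interval −1.63 to 0.05, adjusted p = 0.279), or −0.43 (adjusted p = 0.644) without E7.1 replicate 1, and E7.2 from E7.1 by 1.11 (interval 0.27 to 1.96, adjusted p = 0.271). Without E7.2 replicate 3 the latter was 0.72, and E6.2 against the parental line, at 0.58 (adjusted p = 0.535), became 0.29 without both libraries that stood apart.

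*Zmat3*, a zinc finger protein that binds RNA, had 212, 244 and 208 CPM in the parental libraries and 242, 263 and 257 CPM in E6.1. E6.2 again split, at 368, 294 and 172 CPM, while E7.1 (175, 197 and 216 CPM) and E7.2 (205, 232 and 240 CPM) overlapped the parental line. Its E7 against E6 value was −0.34 (adjusted p = 0.137). It was −0.45 (adjusted p = 0.00666) without E6.2 replicate 3 and −0.18 (adjusted p = 0.390) without E6.2 replicate 1. In E6.2 against the parental line it was 0.33 (adjusted p = 0.507), 0.06 (adjusted p = 0.898) without E6.2 replicate 1, and 0.58 (adjusted p = 0.0446) without both libraries that stood apart. *Sesn1*, a sestrin that restrains mTORC1, had 86.3, 112 and 110 CPM in the parental libraries. It was within or near that range in E6.1 (87.5, 109 and 109 CPM), E6.2 (78.7, 85.6 and 106 CPM) and E7.2 (89.0, 86.4 and 78.2 CPM). E7.1, at 53.05, 72.7 and 83.7 CPM, was wholly below the parental libraries, by −0.56 (SE 0.18, adjusted p = 0.101). This was −0.54 (adjusted p = 0.0453) without both libraries that stood apart, and −0.40 (adjusted p = 0.381) without E7.1 replicate 1.

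*Phlda3* (ENSMUSG00000041801, chromosome 1, 135766119 to 135769136) rests on few reads. Its counts were 27, 11 and 18 in the parental libraries, 31, 23 and 29 in E6.1, and 7, 7 and 3 in E6.2. They were 17, 24 and 16 in E7.1, and 22, 23 and 19 in E7.2. The 3 E6.2 libraries were the lowest of the 15. *Phlda3* was lower in E6.2 than in E6.1 by −2.09 (SE 0.46, interval −3.09 to −1.10, adjusted p = 0.0406), and differed from the parental line by −1.50 in E6.2 (adjusted p = 0.189) and 0.59 in E6.1 (adjusted p = 0.925). The call between the E6 clones stood in 7 of 22 other settings, and without E6.2 replicate 3 it was −1.72 (adjusted p = 0.0899). Leaving out E6.1 replicate 1, 2 or 3 gave an adjusted p of 0.168, 0.120 or 0.111, and every other library except parental replicates 1 and 2, E6.2 replicate 1 and E7.2 replicate 3 also ended the call when removed (adjusted p 0.0600 to 0.0754). The genes most like it in pattern over the 15 libraries were *Cd84*, *Ebi3* and *Traf1*, with root mean square differences in log2 CPM of 0.329, 0.337 and 0.372 against its own spread of 0.717.

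Clone by clone, at most 1 of the 10 genes passed the edgeR test. The 4 comparisons share the 3 parental libraries. In E6.1, 0 of 10 passed the edgeR test (0.324% of all tested genes did), 1 had an unadjusted p under 0.05 (*Trp53*, background 6.71%), 0 were called by DESeq2 (1.11%), and 2 did not overlap the parental libraries (*Trp53* and *Mdm2*, both higher, background 22.5%). In E6.2, 0 passed the edgeR test (1.17%), 3 had an unadjusted p under 0.05 (*Trp53*, *Pmaip1* and *Phlda3*, background 13.1%), 2 were called by DESeq2 (*Trp53* and *Pmaip1*, background 2.86%), and 3 did not overlap (*Trp53* higher, *Pmaip1* and *Phlda3* lower, background 14.7%). The DESeq2 adjusted p was 0.0341 for *Trp53* and 0.0163 for *Pmaip1*.

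In E7.1, *Pmaip1* was the 1 gene past the edgeR test (1.22%), 3 had an unadjusted p under 0.05 (*Mdm4*, *Sesn1* and *Pmaip1*, background 20%), the same 3 were called by DESeq2 (8.34%), and 4 did not overlap, these and *Bbc3*, all lower (32.0%). In E7.2, 0 passed the edgeR test (0.295%), *Mdm4* alone had an unadjusted p under 0.05 (13.3%), 0 were called by DESeq2 (1.83%), and *Mdm4* alone did not overlap (24.2%). The median log2 fold change of the 10 genes, beside that of all tested genes, was 0.08 beside −0.00081 for E6.1 and 0.0036 beside 0.06 for E6.2. For the E7 clones it was −0.23 beside −0.02 (E7.1) and 0.03 beside 0.0043 (E7.2).

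**Figure D3:**
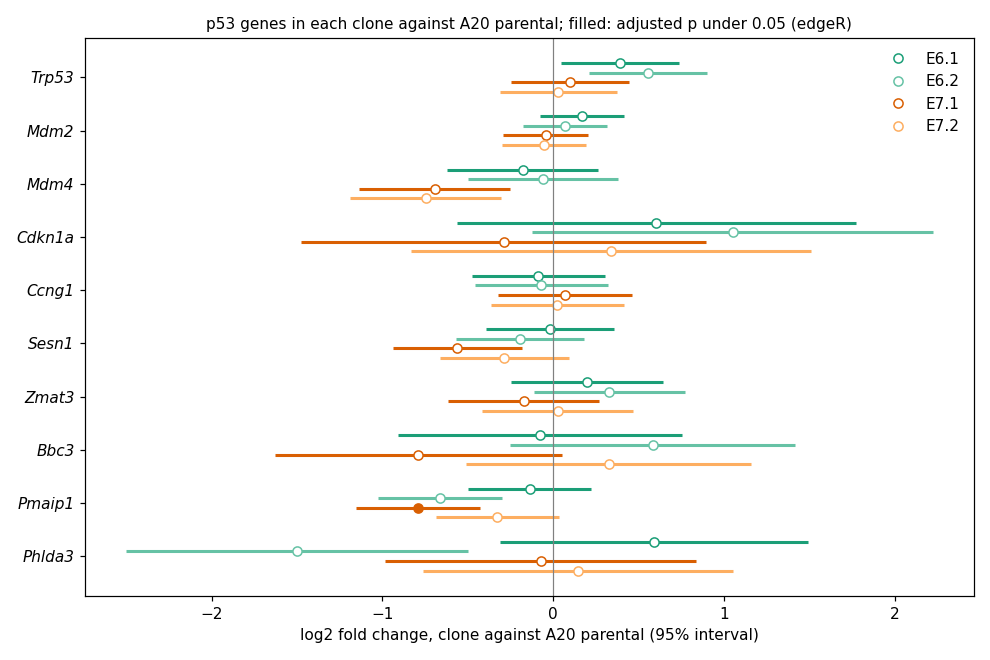
Log2 fold change of each gene in the 4 clones against the parental line, with the 95% interval from the edgeR fit; a filled point has an adjusted p under 0.05. *Pmaip1* in E7.1 is the only filled point. Of the open points, the intervals of *Mdm4* in both E7 clones, *Sesn1* in E7.1, and *Pmaip1* and *Phlda3* in E6.2 lie below 0. Those of *Trp53* in both E6 clones lie above 0. The intervals of *Cdkn1a*, *Bbc3* and *Phlda3* are the widest.

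Between the guides, the E7 clones were lower than the E6 clones in *Mdm4* and *Trp53*, 2 of the 10 genes, where 12.1% of all tested genes passed the edgeR test and 19.3% the DESeq2 test, which called the same 2. An unadjusted p under 0.05 was found for 4 of the 10, with *Zmat3* and *Sesn1* added, against 30.3% of all genes, and 0 of the 10 separated the 6 E7 from the 6 E6 libraries without overlap, against 3.55%. The median log2 difference was −0.33 for the 10 genes and −0.03 for all genes. Of the 10, 8 were negative, and the share of negative values over all tested genes was not counted. This comparison rests on 2 clones per guide, and its spread is that between passages.

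Between clones of the same guide, *Phlda3* was the 1 gene that differed in E6.2 against E6.1 by edgeR (1.24%) and by DESeq2 (3.22%), with *Pmaip1* added at an unadjusted p under 0.05 (12.9%). In E7.2 against E7.1, 0 genes passed edgeR (0.590%) or DESeq2 (2.06%), and *Bbc3* and *Pmaip1*, both higher in E7.2, had an unadjusted p under 0.05 (13.3%). Over all 5 lines at once, 1 gene passed edgeR (*Pmaip1*, background 6.28%) and 4 passed DESeq2 (*Mdm4*, *Phlda3*, *Trp53* and *Pmaip1*, background 22.5%).

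The wider pathway was read from 61 further genes in 3 lists, of which 54 had enough counts to be tested. *Trp63*, *Plk2*, *Gls2*, *Rprm*, *Perp*, *Eda2r* and *Gdf15* did not. Against the parental line edgeR called 0 of the 54 genes in E6.1 (4 at an unadjusted p under 0.05, 0 by DESeq2). It called 0 in E6.2 (6 unadjusted, 0 by DESeq2) and 0 in E7.2 (11 unadjusted, 2 by DESeq2). In E7.1 it called 2, both lower (17 unadjusted, 9 by DESeq2), where the shares of all tested genes were 1.22%, 20% and 8.34%. Over all tested genes the edgeR, unadjusted and DESeq2 shares were 0.324%, 6.71% and 1.11% in E6.1. They were 1.17%, 13.1% and 2.86% in E6.2, and 0.295%, 13.3% and 1.83% in E7.2. *Trp53inp1*, which promotes autophagy and p53 phosphorylation, ran from 74.1 to 95.1 CPM in E7.1 and from 158 to 211 CPM in the parental line, a log2 fold change of −1.14 (SE 0.22, adjusted p = 0.0293). *Dram1*, a lysosomal autophagy protein, had 3 counts in each E7.1 library and 0.544 to 0.932 CPM in the parental line, a fitted log2 fold change of −3.01 (interval −4.42 to −1.61, adjusted p = 0.0420). These calls stood in 15 and 11 of 22 other settings. In E7.2 *Trp53inp1* ran from 122 to 235 CPM and *Dram1* from 0.417 to 0.634 CPM, above E7.1 in every library. The difference between the E7 clones did not pass the edgeR test (adjusted p = 0.109 and 0.127). Both E6 clones also lay below the parental line in each gene, without a call. *Trp53inp1* ran from 140 to 156 CPM in E6.1 and from 130 to 157.5 CPM in E6.2. *Dram1* ran from 0.127 to 0.425 CPM in E6.1 and from 0.0787 to 0.511 CPM in E6.2, which overlapped E7.1. Of all tested genes, 22.5% in E6.1 and 14.7% in E6.2 did not overlap the parental line. That share was not counted between the E7 clones.

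Among 26 tested regulators and cofactors of p53, 3 were lower and 1 higher in the E7 than in the E6 clones, where 12.1% of all tested genes were called. *Rchy1* (Pirh2), a ubiquitin ligase that p53 induces and that degrades p53, ran from 34.6 to 64.8 CPM in the E7 libraries and from 70.8 to 120 CPM in the E6 libraries, without overlap, a difference of −0.97 (SE 0.19, adjusted p = 0.00891). *Trim24*, another ligase for p53, differed by −0.33 (adjusted p = 0.0216), and the coactivator *Ep300*, which acetylates p53, by −0.42 (adjusted p = 0.0482). *Ppp1r13l*, the inhibitor iASPP, was higher by 1.02 (adjusted p = 0.0275), at 1.03 to 1.56 CPM against 0.285 to 0.937 CPM. The *Rchy1* call stood in all 22 other settings, that of *Ppp1r13l* in 16, that of *Trim24* in 15 and that of *Ep300* in 4.

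Of 15 tested targets in arrest, repair and metabolism, 2 were called between the guides, beside 12.1% of all tested genes. *Gadd45a*, a stress sensor in growth arrest, was lower in the E7 than in the E6 clones by −0.89 (SE 0.19, adjusted p = 0.0139), at 3.94 to 15.9 CPM against 16.4 to 19.3 CPM. The parental libraries held 7.83 to 14.3 CPM, below both E6 clones. E7.1 (3.94 to 8.96 CPM) and E7.2 (11.2 to 15.9 CPM) overlapped the parental range. Against the parental line edgeR called *Gadd45a* in no clone. *Fdxr*, the mitochondrial ferredoxin reductase, was higher by 0.60 (adjusted p = 0.0469), a call kept in 9 of 22 other settings. Between the E7 clones, *Ddit4* (REDD1), an inhibitor of mTORC1, was higher in E7.2 by 1.38 (adjusted p = 0.0372), with 44.6, 44.6 and 78.6 CPM against 14.0, 24.2 and 26.4 CPM. Without E7.2 replicate 3 this was 1.06 (adjusted p = 0.173), and the *Ddit4* call stood in 8 of 22 other settings.

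Of 13 tested targets in death and membrane signalling, 1 was lower and 3 were higher in the E7 than in the E6 clones, where 12.1% of all tested genes were called. *Fas*, the death receptor, ran from 32.6 to 46.5 CPM in the E7 and from 46.7 to 89.0 CPM in the E6 libraries, a difference of −0.80 (SE 0.18, adjusted p = 0.0145). *Bid*, which links death receptors to mitochondria, was higher by 0.59 (SE 0.10, adjusted p = 0.00522), *Ei24* by 0.33 (adjusted p = 0.0323) and *Trp53i11* by 0.83 (adjusted p = 0.0213). For *Trp53i11*, E7.1 (4.87 to 10.4 CPM) overlapped E6.1 (4.28 to 6.12 CPM) and E6.2 (5.71 to 8.51 CPM). Only E7.2, at 11.5 to 17.0 CPM, lay above them. For *Bid* (82.0 to 100 CPM) and *Ei24* (132 to 152 CPM), E7.1 lay above both E6 clones. E7.2 overlapped E6.1 in *Bid* (62.1 to 81.2 against 57.0 to 67.7 CPM) and in *Ei24* (109 to 128 against 96.1 to 115 CPM), and lay above E6.2 in both. *Fas* and *Bid* thus differed in opposite directions. The calls of *Gadd45a* and *Bid* stood in all 22 other settings, that of *Fas* in 21, that of *Trp53i11* in 18 and that of *Ei24* in 13. In all, 10 of the 54 genes were called between the guides, 5 in each direction, a share of 18.5% beside the 12.1% of all tested genes. Over all 5 lines 7 of the 54 were called, *Rchy1*, *Gadd45a*, *Ddit4*, *Trp53i11*, *Trp53inp1*, *Bid* and *Fas*, a share of 12.96% beside 6.28% of all tested genes.

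**Figure D4:**
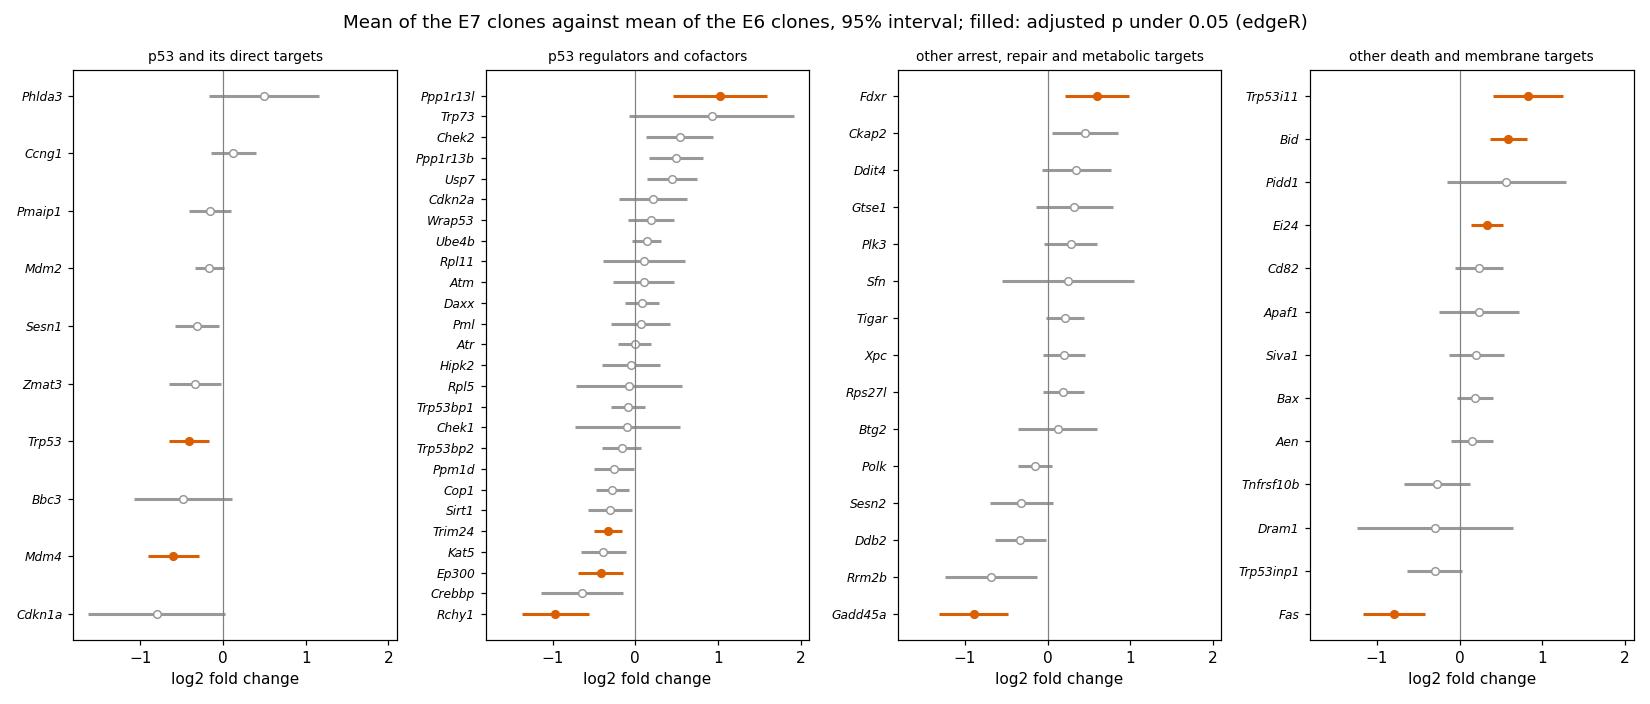
Log2 fold change of the E7 against the E6 clones for the 10 p53 genes and the 3 wider lists, with 95% intervals, ordered by value within each list; filled orange points have an adjusted p under 0.05. The called genes lie on both sides of 0, with *Rchy1*, *Gadd45a* and *Fas* lowest and *Ppp1r13l*, *Trp53i11* and *Fdxr* highest in their lists.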

How the data were processed

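The authors aligned reads to mm10 with HISAT, processed them with SAMtools and used featureCounts 1.5.0 to count pairs per gene (GRCm38 annotation plus spike-ins, strand ignored) and deposited the whole-number counts of each library in its own file. With these settings read pairs matching several places or genes were not counted, and PCR duplicates were not marked. The 92 spike-in features (0 counts in every library) were left out. Symbols were found for 40254 of 41388 genes.

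Counts were fitted with edgeR 4.0.16 (R 4.3.3), with 1 mean per line over all 15 libraries, TMM normalization, the default expression filter (13904 genes kept, all 10 p53 genes among them), the quasi-likelihood F test and Benjamini-Hochberg adjustment over all tested genes at 0.05. DESeq2 1.42.0 was an alternative. RPKM used the counter's exon lengths. Groups came from the sample titles. The fits were also run on simulated data, where genes were changed in E7.1 only and no libraries deviated together. That run does not cover the deviation shared by E6.2 replicate 3 and E7.2 replicate 3. The 10 genes and all lists were chosen with earlier results of these data known. All 10 genes are reported; of the wider lists, those called in any of 8 tests, plus *Foxp1*, and the genes most like *Trp53* and like the gene whose line means varied most. No other gene's exons overlap those of the 10 genes. One further marker gene is not reported here.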

Additional observations from a re-analysis of the deposited data

Results flagged for a closer look

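The following differences passed the edgeR test of the difference between the E7 and the E6 clones, or between the clones of 1 guide. Between the guides the log2 differences, E7 minus E6, were −0.41 for *Trp53*, −0.60 for *Mdm4*, −0.42 for *Ep300*, −0.97 for *Rchy1*, −0.33 for *Trim24*, −0.89 for *Gadd45a* and −0.80 for *Fas*. They were 1.02 for *Ppp1r13l*, 0.60 for *Fdxr*, 0.33 for *Ei24*, 0.59 for *Bid* and 0.83 for *Trp53i11*. Within a guide, *Phlda3* differed by −2.09 in E6.2 against E6.1 and *Ddit4* by 1.38 in E7.2 against E7.1. The calls kept in the fewest of 22 other settings were those of *Ep300* (4), *Phlda3* (7), *Ddit4* (8) and *Fdxr* (9).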

How the results depend on the processing

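Of 70 log2 fold changes of the 10 genes, 4 were called, 0 of these changed sign in 22 other settings, and 22 of the 66 uncalled values did. Counts are all genes called, then p53 genes called. Without the filter on low counts they were 74 in E6.1, 343 in E7.1, 265 in E6.2 against E6.1 (0 p53 genes), 145 in E7.2 against E7.1, 1617 over all lines (2 p53 genes), and 1 p53 gene in E7 against E6. By DESeq2 they were 155 for E6.1, 398 for E6.2 (2), 1160 for E7.1 (3), 254 for E7.2, 2684 in E7 against E6, 448 in E6.2 against E6.1, 287 in E7.2 against E7.1 and 3125 over all lines (4). With only the lines compared they were 111 for E6.1, 45 for E6.2, 18 for E7.2, 68 in E6.2 against E6.1 (0) and 43 in E7.2 against E7.1. Without E6.2 and E7.2 replicate 3, chosen after seeing that they deviate alike, they were 132 for E6.1, 323 for E6.2 (2), 2166 for E7.1 (3), 219 for E7.2, 4734 in E7 against E6 (4), 484 in E6.2 against E6.1 (0) and 4079 over all lines (4). The main counts were 45, 163, 169, 41, 1677, 173, 82 and 873, in the order E6.1, E6.2, E7.1, E7.2, E7 against E6, E6.2 against E6.1, E7.2 against E7.1 and all lines. The cause of these shifts was not tested.

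Leaving out 1 library at a time gave 28 to 69 genes (E6.1), 83 to 228 (E6.2), 30 to 1011 (E7.1), 14 to 191 (E7.2), 399 to 3847 in E7 against E6, 105 to 299 in E6.2 against E6.1, 46 to 131 in E7.2 against E7.1 and 353 to 2899 over all lines. The p53 genes called were then 0 to 0 for E6.1, 0 to 1 for both E6.2 and E7.2, 0 to 2 for E7.1, 0 to 4 in E7 against E6, 0 to 1 in E6.2 against E6.1, 0 to 0 in E7.2 against E7.1 and 0 to 4 over all lines.

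With a replicate block, the *Phlda3* call between the E6 clones was lost (0 p53 genes, adjusted p = 0.0515), as were the E7 against E6 calls of *Ei24*, *Ep300* and *Fdxr* (adjusted p 0.0505 to 0.0657), and the count for E7 against E6 was 1402. Libraries with the same replicate number deviated together by a mean r of 0.0531 (30 pairs, −0.124 to 0.426), against −0.0249 for different numbers, so the numbers were not treated as pairing the libraries. At 3 to 31 counts *Phlda3*, and at 20 to 135 counts *Cdkn1a*, are limited by depth. The same holds for *Dram1*, at 2 to 32 counts, and *Ppp1r13l*, at 9 to 61 counts.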
